A study of Rattus norvegicus with 56 samples.

Results

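Among 56 single-colour Agilent arrays of cultured rat hippocampal neurons, the 2 series of arrays called A and B here were compared with each other. Series A is the 11 arrays that carry a plain sample number (no D prefix) on 1 pair of slides, and series B is the 12 such arrays on another pair. The members were chosen by their sample numbers and slides, with no measured value. One further array on the slides of A, 1 Hz at 2 h replicate 2, was left out because the scanner software had marked its grid as badly placed. The other arrays, 17 in series C and 15 in series D (with the D prefix), serve below to show where A and B stand.

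All cultures came from hippocampi of Sprague-Dawley rats at embryonic day 18, grown in serum-free neuron medium. They had received repetitive transcranial magnetic stimulation (rTMS) from a coil under the dish, either as evenly spaced pulses at 1 Hz or as short bursts (intermittent theta burst stimulation, iTBS), or sham treatment with the coil held away, or no treatment. RNA was taken 0, 2, 8, 24 or 48 h after stimulation. Series A held 2 untreated arrays, 3 sham, 3 after 1 Hz and 3 after iTBS, and series B held 0 untreated, 4 sham, 3 after 1 Hz and 5 after iTBS. Over these times in order, A had 4, 2, 1, 1 and 3 arrays and B had 3, 2, 3, 2 and 2. A and B share 7 groups of the same protocol and time, with 1 array each. The sources used here do not say whether A and B were separate culture preparations, or whether the arrays of a series came from separate dishes or litters, so p-values measure the spread between these samples, which may be technical.

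Dissociated hippocampal cultures hold excitatory and inhibitory neurons, and beside them astrocytes and cells of the oligodendrocyte lineage. Microglia, the macrophages of the brain, and cells of the choroid plexus and the vessels can be carried over from the dissection. Each of these cell types has transcripts that the others lack, such as the complement C1q chains of microglia or the myelin proteins of oligodendrocytes. A bulk array reads their sum.

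Levels are given as log2 signal scaled within each array, with 0 at each array's mean over its probes. The defining neuronal transcripts Rbfox3, Map2, Tubb3, Syt1, Gad1 and Slc17a7 stood clear of the background on all 11 arrays of A and all 12 of B. The share of spots well above background ran from 68.4% to 75% in A and from 66.1% to 75.8% in B, and the 75th percentile of the signal from 1896 to 18416 and from 1999 to 8109. No difference between the series in these, the spread of the signal or the local background passed a two-sided exact permutation test within times (p 0.115 to 0.536, 0.461 to 0.536 adjusted over the 4 measures). One array had a marked dim area: on A after 1 Hz at 8 h, the only array of A at 8 h, 30.6% to 85.6% of the bright spots in 6 of 96 blocks lay over 2 log2 below the median of the 23 arrays. Elsewhere on that array no block exceeded 4.98%, and the highest block of any other array reached 13.7%. Its replicate probes varied by 16.7% (coefficient of variation), against 2.30% to 4.24% on the other arrays, and 2778 of the tested probes (8.55%) had a spot in the dim area. Those among the genes below include Tyrobp, C1qa, Ccl3, Lcn2, Cldn11, Bcas1, Aqp4, Gfap, Folr1, Snap25, Tfap2b, Ntsr2, Pvalb, Hspe1, Ddit3, Ndufa6 and Rps25. Each of these 17 still passed, in the same direction, when that array was left out, and 8894 probes then passed in all. The array of A after 1 Hz at 48 h deviated in another way. Of its bright spots 2.26% were that low, spread over the array (median block 2.26%, highest 4.44%). The remaining arrays had at most 0.53% of such spots. Without the array of 48 h, 8420 probes passed.

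**Figure D1:**
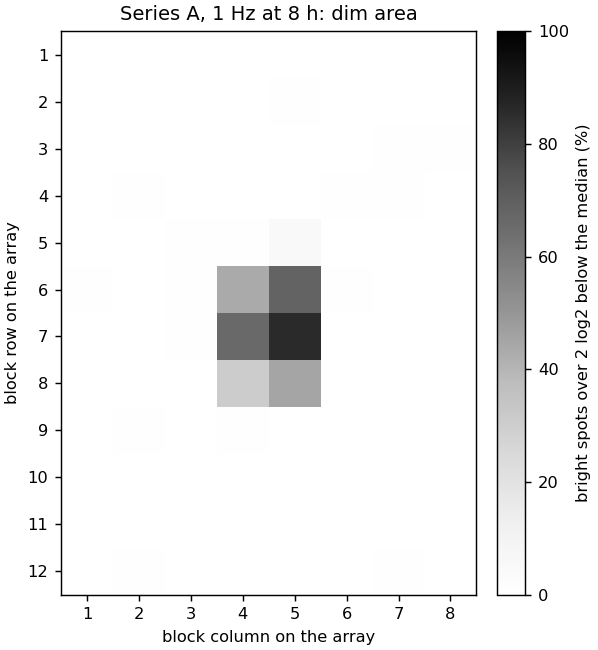
Share of bright spots (%) that lay over 2 log2 below their median over the 23 arrays, in each of 96 blocks of the array of series A after 1 Hz at 8 h, by block row and column. Darker blocks hold more such spots, and the 6 dark blocks reach 30.6% to 85.6%, while all others stay at or below 4.98%.

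The first comparison asked how far the arrays of A and B differ once time is taken into account. In limma with time in the model, 8372 of 32480 probes (25.8%) passed an adjusted p of 0.05, 4711 higher in A (14.5%) and 3661 higher in B (11.3%). Counted by gene, with the brightest probe for each, 3253 of 12966 genes passed (25.1%), 2010 higher in A (15.5%) and 1243 higher in B (9.59%). Most differences were small. The median size among the genes that passed was 0.56 log2, and 2812 of them differed by less than 1 log2, while 12 were 2 log2 or more higher in A and 48 were 2 log2 or more higher in B. Large sizes are uncertain where the lower series lies near the background. Of the 3253 genes that passed, 1508 had the same direction in all 7 matched groups. These groups are arrays of the same comparison and the share over all genes is not given, so the count adds no separate support. Series not overlapping at all, whether or not they passed, were seen for 23 genes higher in A (0.177%) and 61 higher in B (0.47%). The median over all genes was +0.08. Scaling to the 75th percentile in place of the mean and SD moved the median of all probes from +0.06 to −0.06 and the share of calls that were higher in A from 56.3% to 38.2% (2786 higher in A and 4514 higher in B). Each slide of A or B holds 1 of the series only, so slide and series cannot be told apart among these arrays, and with slide as a random block 3369 probes passed, 1633 higher in A and 1736 higher in B. The precision is limited by the number of arrays.

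**Figure D2:**
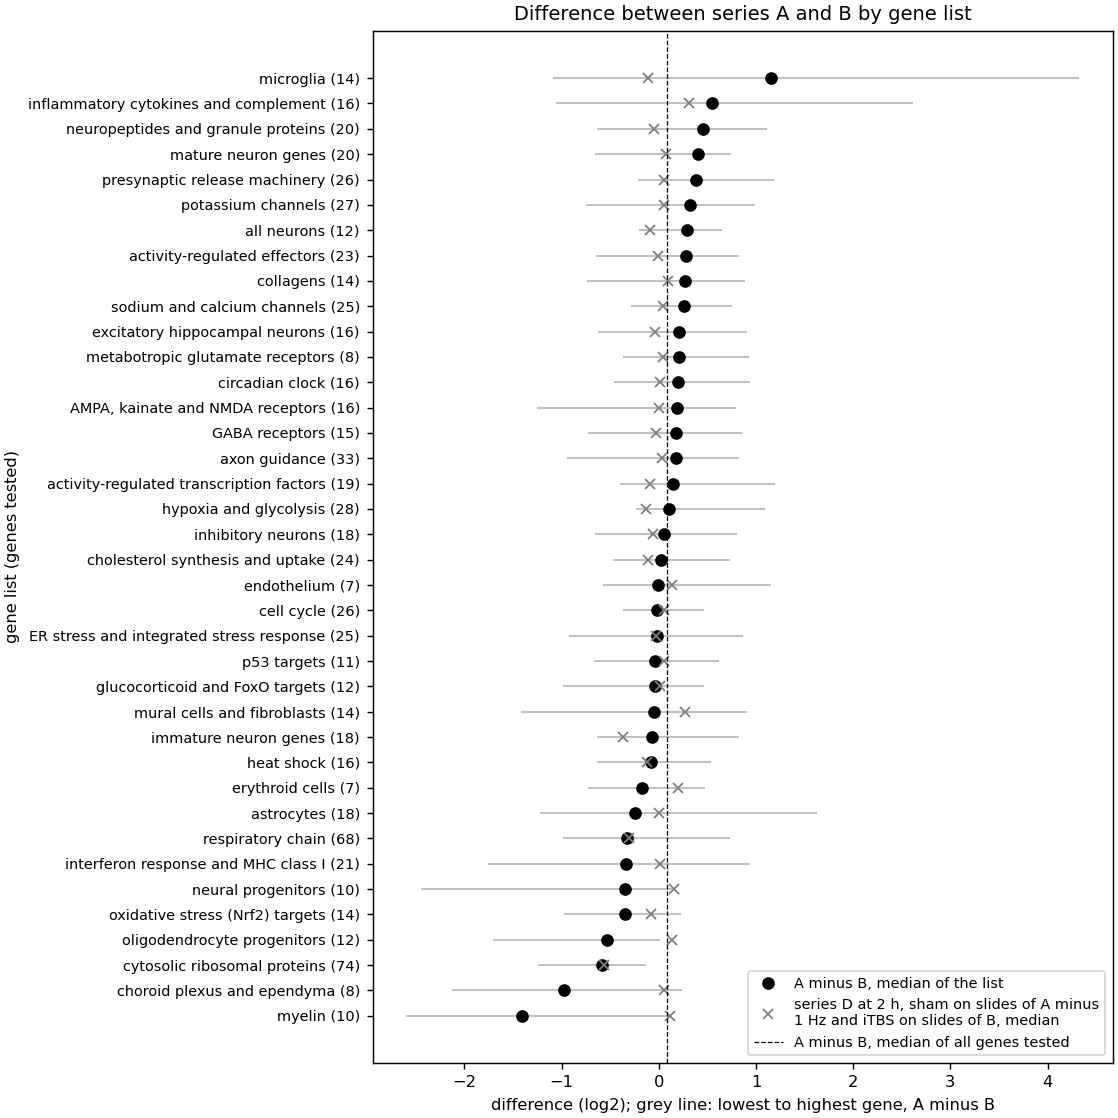
Difference in level between series A and B (log2, A minus B) for each gene list with at least 7 genes tested. Points are medians over the list, grey lines run from the lowest to the highest gene, crosses give the median of the difference in series D at 2 h between 1 sham array on the slides of A and 2 stimulated arrays on the slides of B, and the dashed line marks the median of all genes (+0.08); microglia lie at the top (+1.15) and myelin at the bottom (−1.40).

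Transcripts of microglia divided the series. Of 14 microglial genes tested, 8 were higher in A, 3 were higher in B and 3 did not pass, with a median difference of +1.15 (+0.90 with the 3 genes dim on every array of B at their lowest fold) against +0.08 over all genes. C1qa, a chain of the complement component that starts the classical pathway, was well above background on 10 of 11 arrays of A and on 0 of 12 of B. Its level ran from −2.66 to 1.88 (median −0.08) in A and from −4.90 to −3.69 (median −4.45) in B (limma adjusted p 1.60e-07), at least 5.87-fold higher in A. For a gene dim on every array of a series only such a lower bound of the fold can be read. No array of A was as low as the highest of B. In bulk RNA a change in the number of cells of a type and a change in their RNA per cell cannot be told apart.

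Aif1, which encodes the microglial calcium-binding protein Iba1, followed the same order. It was well above background on 10 arrays of A and 0 of B, ran from −3.21 to 1.22 (median −0.77) in A and from −4.68 to −2.54 (median −3.55) in B, and was at least 3.59-fold higher in A (adjusted p 2.17e-06). Of the 11 arrays of A, 1 lay within the range of B, the one after iTBS at 48 h. C1qc, another chain of C1q, was seen on 8 arrays of A and 0 of B (at least 2.09-fold, adjusted p 0.000368). The receptor Trem2 ran from −2.16 to 1.55 (median −0.28) in A and from −3.23 to −1.89 (median −2.26) in B (+2.16 ± 0.27 SE, adjusted p 9.85e-06), and its signalling partner Tyrobp from −0.30 to 2.15 (median 0.82) and from −1.21 to −0.46 (median −0.81) (+1.58 ± 0.20 SE, adjusted p 1.27e-05). The arrays of the series overlapped for Trem2 and did not overlap for Tyrobp. C1qb (+1.61, adjusted p 0.000154), the Fc receptor chain Fcer1g (+1.57, adjusted p 0.000174) and the lysosomal protein Laptm5 (+0.51, adjusted p 0.0021) were also higher in A.

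Other microglial genes had the opposite order. The fractalkine receptor Cx3cr1 (−1.09, adjusted p 0.000347), the complement receptor chain Itgam (−0.87, adjusted p 0.00414) and the purinergic receptor P2ry12 (−0.73, adjusted p 0.0111) were higher in B, and all 3 passed the background on every array of B. Csf1r (+0.73, adjusted p 0.106), the receptor of the growth factor microglia depend on, did not pass and was seen on 2 arrays of A and 1 of B. The summed level of the list, which is set by its brightest genes, ran from 6.49 to 7.23 in A and from 6.65 to 7.64 in B, so it overlapped, with a lower median in A. The median difference kept its sign under every scaling and was +0.87 with the 75th percentile and +0.46 with normexp, with 8 and 3 calls each time, as under quantile normalization.

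Complement and inflammatory transcripts leaned the same way as C1q. Of 16 tested, 7 were higher in A, 1 was higher in B and 8 did not pass (median +0.55, or +0.42 with Ccl3 at its lowest fold). C3, the central complement component, ran from −1.05 to 1.65 (median 0.27) in A and from −3.61 to −0.62 (median −2.08) in B and differed by +2.46 ± 0.26 (SE; adjusted p 1.63e-06), with a small overlap. The chemokine Ccl3 was above background on 4 arrays of A and 0 of B (at least 1.28-fold, adjusted p 0.00039). Lipocalin Lcn2 (+1.02, adjusted p 0.00476), the chemokine Cxcl1 (+1.09, adjusted p 0.0113), C4a (+0.82, adjusted p 0.00168), C4b (+0.65, adjusted p 0.034) and the adhesion molecule Icam1 (+0.95, adjusted p 0.0372) were higher in A, and the adhesion molecule Vcam1 (−0.58, adjusted p 0.00582) was higher in B. Scaling to the 75th percentile left 4 higher in A and 3 higher in B. C4a and C4b are near-identical copies, so their probes may read each other.

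Outside these lists, Fcrl2 was above background on every array of A and did not overlap with B. It encodes a receptor of the Fc receptor-like family known from immune cells. Above background on all 11 arrays of A and 0 of 12 of B, it ran from −1.35 to 2.25 (median 0.51) in A and from −5.0 to −2.86 (median −3.10) in B, and was at least 7.71-fold higher in A (adjusted p 8.88e-07). In series C it ran from −3.84 to −1.81 (median −2.79) and in D from −3.63 to 0.23 (median −1.67), and A had the highest median of the 4 series.

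**Figure D3:**
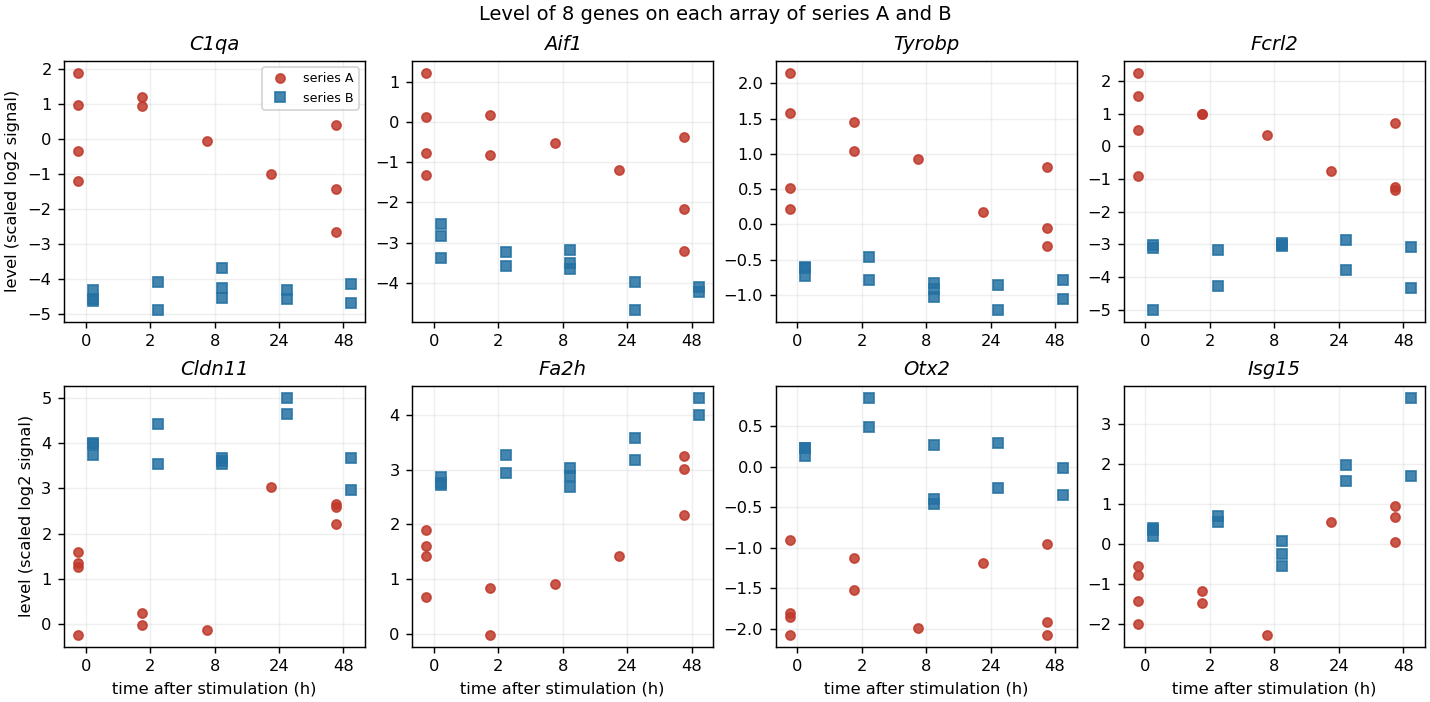
Level (log2 signal scaled within the array) of 8 genes on each array of series A (circles) and B (squares) against the time after stimulation in hours. C1qa, Aif1, Tyrobp and Fcrl2 lie higher in A and Cldn11, Fa2h, Otx2 and Isg15 higher in B, with no overlap between the series for C1qa, Tyrobp, Fcrl2 and Otx2.

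The genes of oligodendrocytes went the other way. Of 10 myelin genes tested, 9 were higher in B and 0 in A, with a median of −1.40, and the summed level ran from 5.05 to 7.40 in A and from 7.64 to 8.91 in B with no overlap. The tight junction protein of the myelin sheath, Cldn11, ran from −0.24 to 3.03 (median 1.34) in A and from 2.96 to 5.0 (median 3.71) in B (−2.60 ± 0.31 SE, adjusted p 5.35e-06), and 1 end of its ranges overlapped. Mbp, which compacts the sheath, differed by −2.57 ± 0.39 (SE; adjusted p 8.56e-05), Fa2h, which makes its hydroxylated lipids, by −1.77 ± 0.19 (SE; adjusted p 1.39e-06), and Myrf, the transcription factor that turns on myelin genes, by −1.60 ± 0.17 (SE; adjusted p 1.70e-06). Mag (−1.06, adjusted p 8.73e-06), Cnp (−1.21, adjusted p 0.0143), Ugt8 (−0.75, adjusted p 0.00312) and Mobp (−0.48, adjusted p 0.0224) passed too, and Mog did not (+0.08, adjusted p 0.758). Under each of the 3 other scalings 9 genes were called, with medians of −1.41 to −1.45.

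Their progenitors shared the direction. Of 12 genes of oligodendrocyte progenitors 7 were higher in B and 0 in A (median −0.53). Bcas1, which marks cells that begin to myelinate, ran from 3.50 to 5.52 (median 4.62) in A and from 5.44 to 6.52 (median 6.40) in B (−1.70 ± 0.21 SE, adjusted p 1.00e-05), and only 1 end of the ranges touched. The growth factor receptor Pdgfra ran from 6.87 to 8.38 (median 7.51) in A and from 8.13 to 9.39 (median 8.41) in B (−1.06 ± 0.16 SE, adjusted p 6.80e-05). The lineage factor Sox10 (−1.2, adjusted p 0.000664), Neu4 (−0.95, adjusted p 0.000414), C1ql1 (−0.87, adjusted p 0.000277), Gpr17 (−0.65, adjusted p 0.0033) and Olig2 (−0.41, adjusted p 0.00258) were higher in B, whereas Olig1 (−0.26, adjusted p 0.46) and the proteoglycan gene Cspg4 (+0.02, adjusted p 0.943) did not pass.

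Astrocytes and neural progenitors were less uniform. Of 18 astrocyte genes, 7 were higher in B, 1 was higher in A and 10 did not pass (median −0.25). The water channel Aqp4 ran from 5.87 to 8.92 (median 7.44) in A and from 7.72 to 9.73 (median 8.49) in B (−1.22 ± 0.15 SE, adjusted p 6.75e-06), and the filament protein Gfap from 0.83 to 4.64 (median 2.36) and from 2.81 to 5.4 (median 4.15) (−1.22 ± 0.27 SE, adjusted p 0.00282). Without the array with the dim area the difference of Gfap was −0.85. Ntsr2 (−0.88, adjusted p 0.000188), the growth factor receptor Fgfr3 (−0.90, adjusted p 0.0448), the bicarbonate carrier Slc4a4 (−0.62, adjusted p 0.0203), the gap junction protein Gja1 (−0.46, adjusted p 0.0096) and Aldh1l1 (−0.45, adjusted p 0.0166) were higher in B. The glutamate transporters Slc1a2 (−0.15, adjusted p 0.491) and Slc1a3 (−0.42, adjusted p 0.105) and the glutamine synthetase Glul (+0.05, adjusted p 0.786) did not pass.

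The exception was Slc39a12, a zinc transporter of astrocytes. It ran from 3.60 to 4.74 (median 4.26) in A and from 1.75 to 3.17 (median 2.58) in B, a difference of +1.63 ± 0.16 (SE; adjusted p 3.89e-07) with no overlap, and its level in series C and D (medians 3.42 and 3.09) lay between them. Of 10 progenitor genes, 5 were higher in B and 0 in A (median −0.34). Hopx, a homeodomain protein of radial glia and astrocytes, ran from −0.10 to 3.59 (median 1.46) in A and from 3.05 to 4.56 (median 3.86) in B (−2.45 ± 0.29 SE, adjusted p 4.86e-06), with the highest array of A inside the range of B. The fatty acid binding protein Fabp7 (−0.88, adjusted p 0.00101), the Notch target Hes5 (−0.94, adjusted p 0.00204) and Sox2 (−0.40, adjusted p 0.0193) were among those higher in B. Nestin (Nes, −0.19, adjusted p 0.218) and vimentin (Vim, −0.01, adjusted p 0.963) did not pass, and neither did the proliferation gene Mki67 (−0.18, adjusted p 0.272). Of 26 cell cycle genes 2 were higher in A and 1 in B.

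Genes of the choroid plexus, which secretes cerebrospinal fluid, were higher in B for 4 of 8 and higher in A for 0 (median −0.98). Transthyretin (Ttr), its main secreted protein, ran from 2.06 to 6.31 (median 4.38) in A and from 5.07 to 7.48 (median 6.34) in B (−1.95 ± 0.40 SE, adjusted p 0.00164), so both series held it and the ranges overlapped. Otx2, the homeodomain factor of choroid plexus epithelium, ran from −2.08 to −0.90 (median −1.81) in A and from −0.46 to 0.85 (median 0.18) in B (−1.70 ± 0.17 SE, adjusted p 4.72e-07) with no overlap. The potassium channel Kcnj13 was above background on 2 arrays of A and 11 of B (−2.13 ± 0.26 SE, adjusted p 6.57e-06), and the folate receptor Folr1 differed by −1.97 ± 0.30 (SE; adjusted p 8.37e-05). Aqp1 (−0.15, adjusted p 0.388), Kcne2 (+0.24, adjusted p 0.405) and the ciliary genes Foxj1 (−0.25, adjusted p 0.127) and Rsph1 (+0.22, adjusted p 0.274) did not pass. The median of the list was −0.39 under normexp, where 5 genes were called, all higher in B.

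Vessel and meningeal genes showed no single direction. Of 14 genes of mural cells and fibroblasts, the contractile genes Tagln (−1.03, adjusted p 0.00178) and Myl9 (−0.89, adjusted p 0.00081) and the pericyte receptor Pdgfrb (−1.41, adjusted p 1.50e-05) were higher in B, and the matrix proteoglycans Dcn (+0.72, adjusted p 6.08e-05) and Lum (+0.89, adjusted p 0.0328) were higher in A. Of 7 endothelial genes tested 1 passed, Cldn5 (adjusted p 0.0259), which was above background on 3 arrays of A and 0 of B, too dim for a fold to be given. It no longer passed in 13 of 43 alternatives, and 0 endothelial genes were higher in A under scaling to the 75th percentile, in the matched-group block, with all 55 arrays or without the array with the dim area. Of 7 erythroid genes 1 passed, Slc4a1 (−0.72, adjusted p 0.00285, higher in B), and the globin gene Hba-a1 did not (+0.48, adjusted p 0.157).

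The genes used by all neurons and those of excitatory neurons that passed were higher in A, by less than 1 log2. Of 12 genes used by all neurons 5 were higher in A and 0 in B (median +0.29), and of 16 genes of excitatory hippocampal neurons 6 and 0 (median +0.21). The latter count was 3, with a median of +0.09, under scaling to the 75th percentile and 2 in the matched-group block. Snap25, a core protein of vesicle fusion, ran from 5.99 to 6.90 (median 6.55) in A and from 5.6 to 6.19 (median 5.83) in B (+0.65 ± 0.10 SE, adjusted p 0.000136), and the neurofilaments Nefm (+0.56, adjusted p 0.000183), Nefl (+0.55, adjusted p 0.00072) and Nefh (+0.74, adjusted p 0.000117) shared the direction. Fezf2, a factor of deep-layer projection neurons, ran from 4.59 to 6.15 (median 5.53) in A and from 4.38 to 4.77 (median 4.59) in B (+0.89 ± 0.14 SE, adjusted p 0.0001). Neurod6 (+0.57, adjusted p 0.00497), Bcl11b (+0.43, adjusted p 0.00857) and Tbr1 (+0.91, adjusted p 0.0226) were also higher in A, while Rbfox3 did not pass (−0.14, adjusted p 0.8). Rbfox3 has a spot in the dim area, and its difference without that array was +0.38 (adjusted p 0.258). The ranges overlapped for each of these genes, and Tbr1 did not pass without the array with the dim area (+0.76) or the array of B after iTBS at 0 h (+0.83). The level of Tbr1 was low, from −3.87 to −0.62 in A and from −3.85 to −1.86 in B.

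Inhibitory neurons gave 2 genes higher in each series of 18 tested (22.2% called, near the 25.1% of all genes). Gad2, which makes GABA at terminals (+0.66, adjusted p 0.00298), and Calb2 (+0.80, adjusted p 0.00477) were higher in A, and Pvalb (−0.66, adjusted p 0.00458) and Vip (−0.64, adjusted p 0.0109) were higher in B. Gad1 (+0.27, adjusted p 0.125), Sst (+0.47, adjusted p 0.182) and Npy (+0.43, adjusted p 0.0672) did not pass. Of 4 genes of Cajal-Retzius cells, Lhx1 (−0.81, adjusted p 0.00356) was higher in B and Reln (−0.26, adjusted p 0.0685) did not pass.

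Genes of synaptic output and excitability leaned towards A. Of 26 genes of the release machinery 9 were higher in A and 0 in B (median +0.38), led by the priming factor Unc13b, which ran from 0.61 to 2.23 (median 1.34) in A and from −0.56 to 0.88 (median 0.15) in B (+1.18 ± 0.14 SE, adjusted p 6.63e-06). The counts were 8 and 0 among 25 sodium and calcium channel genes and 6 and 1 among 27 potassium channel genes. They were 7 and 1 among 20 genes of mature neurons, against 1 and 0 among 18 genes of immature neurons. The release machinery passed at 34.6%, the sodium and calcium channels at 32% and the genes of mature neurons at 40%. Potassium channels passed at 25.9%, near the 25.1% of all genes (15.5% higher in A). Kcnq5, which carries the M current (+0.99, adjusted p 0.000375), Kcna1 (+0.68, adjusted p 0.00276) and the calcium channel subunit Cacna2d3 (+0.75, adjusted p 0.00088) were higher in A. Of 20 neuropeptides and granule proteins 9 were higher in A and 1 in B (median +0.45), among them Tac1, the precursor of substance P, which ran from 3.62 to 4.86 (median 4.26) in A and from 2.31 to 3.64 (median 3.0) in B (+1.12 ± 0.16 SE, adjusted p 3.93e-05). Cort (+0.76, adjusted p 0.000282), Scg2 (+0.69, adjusted p 0.00221), Nxph3 (+1.05, adjusted p 0.00128), Pcsk2 (+0.53, adjusted p 0.0021) and Nts (+0.52, adjusted p 0.00834) shared its direction. In the matched-group block the release machinery kept 5 and 0, sodium and calcium channels 3 and 0 and neuropeptides 3 and 0. Scaling to the 75th percentile lowered the share of calls higher in A over all probes from 56.3% to 38.2%. The counts of these lists under that scaling are not given.

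Receptors for glutamate and GABA were called at shares near the 25.1% of all genes. Of 16 AMPA, kainate and NMDA receptor genes, Grin2b (+0.80, adjusted p 0.00748), Grin2a (+0.55, adjusted p 0.014) and Grik1 (+0.44, adjusted p 0.0237, lost without the array with the dim area, +0.38) were higher in A, and Grin2c, an NMDA receptor subunit known from cerebellum and astrocytes, was higher in B. Grin2c ran from 0.96 to 2.58 (median 1.31) in A and from 2.23 to 3.57 (median 2.50) in B (−1.25 ± 0.11 SE, adjusted p 1.87e-07), with 1 end of the ranges overlapping. Metabotropic receptors gave 2 higher in A of 8, Grm8 (+0.65, adjusted p 0.00547) and Grm5 (+0.93, adjusted p 0.0152). GABA receptors gave Gabra5 (+0.83, adjusted p 0.0016) and Gabrb2 (+0.41, adjusted p 0.0102) higher in A and Gabrg1 (−0.72, adjusted p 0.0158) higher in B, of 15. Under scaling to the 75th percentile 0 of the ionotropic glutamate receptor genes were higher in A and 1 in B.

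Most interferon-stimulated and MHC class I genes that passed were higher in B. Of 21 tested, 10 were higher in B, 2 were higher in A and 9 did not pass (median −0.34), and the median was negative under every scaling (−0.29 to −0.48). Isg15, a ubiquitin-like protein strongly induced by type I interferon, ran from −2.26 to 0.95 (median −0.76) in A and from −0.55 to 3.64 (median 0.47) in B (−1.75 ± 0.21 SE, adjusted p 6.75e-06). The ranges overlapped, and A was lower in all 7 matched groups. The antiviral genes Mx2 (−1.11, adjusted p 0.00157) and Rsad2 (−0.90, adjusted p 0.0039), the immunoproteasome subunits Psmb8 (−0.77, adjusted p 0.000654) and Psmb9 (−0.48, adjusted p 0.00126), the class I light chain B2m (−0.55, adjusted p 0.00308), the class I genes RT1-A1 (−0.57, adjusted p 0.00286) and RT1-A2 (−0.53, adjusted p 0.0079) and Mx1 (−0.33, adjusted p 0.0441) shared the direction. RT1 genes are close copies of each other, so their probes may read more than 1. Ifi27, also known as interferon-inducible, went the other way, from 2.04 to 3.91 (median 2.62) in A and from 1.02 to 2.79 (median 1.53) in B (+0.94 ± 0.11 SE, adjusted p 6.76e-06), with higher levels in A in all 7 matched groups, and Stat2 was slightly higher in A (+0.21, adjusted p 0.0373).

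Interferon acts on many of its targets through a promoter element that repeats GAAA. RefSeq promoters (assembly GRCr8, 250 bases before to 50 after the start of the gene) were at hand for 17 of the 21 genes, and GAAANNGAAA was searched on both strands. It was found in 10 of the 17, against 1034 of all 27457 promoters of that length (3.77%). Among the genes higher in B with a promoter, 3 of 7 held it, and of the genes higher in A, Ifi27 held 2 copies and Stat2 held 0. Irf7, Bst2, Tap1, Tap2, RT1-S3 and RT1-N3, which did not pass, held it too. The element was thus not particular to the genes that differed. The match is a description of these letters and not of a bound site. The promoters of Psmb8, chr20:4656982-4657281 (minus strand), B2m, chr3:129549080-129549379 (plus strand), and Rsad2, chr6:48788071-48788370 (minus strand), all higher in B, and of Ifi27, chr6:128355062-128355361 (plus strand), higher in A, are shown because genes with the element went in both directions. Each runs 5′ to 3′ on the strand of its gene, with the matches in capitals (read as the reverse complement in Psmb8 and Rsad2).
Psmb8: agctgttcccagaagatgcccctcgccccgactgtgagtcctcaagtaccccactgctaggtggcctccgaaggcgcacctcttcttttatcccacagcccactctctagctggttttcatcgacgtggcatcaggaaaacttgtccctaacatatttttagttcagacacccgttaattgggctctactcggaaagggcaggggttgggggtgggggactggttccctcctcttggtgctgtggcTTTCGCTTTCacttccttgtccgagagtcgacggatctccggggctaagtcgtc
B2m: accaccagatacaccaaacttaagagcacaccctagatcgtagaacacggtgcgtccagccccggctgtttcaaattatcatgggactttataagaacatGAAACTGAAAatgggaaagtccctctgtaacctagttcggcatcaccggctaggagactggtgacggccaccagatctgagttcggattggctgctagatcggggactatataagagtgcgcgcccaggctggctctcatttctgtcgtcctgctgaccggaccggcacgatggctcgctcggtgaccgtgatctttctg
Rsad2: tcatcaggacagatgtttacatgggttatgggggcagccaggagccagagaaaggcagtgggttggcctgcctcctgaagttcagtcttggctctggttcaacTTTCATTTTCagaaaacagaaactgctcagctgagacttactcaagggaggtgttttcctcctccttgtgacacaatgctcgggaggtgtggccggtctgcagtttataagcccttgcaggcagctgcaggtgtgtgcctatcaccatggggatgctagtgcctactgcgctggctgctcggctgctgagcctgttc
Ifi27: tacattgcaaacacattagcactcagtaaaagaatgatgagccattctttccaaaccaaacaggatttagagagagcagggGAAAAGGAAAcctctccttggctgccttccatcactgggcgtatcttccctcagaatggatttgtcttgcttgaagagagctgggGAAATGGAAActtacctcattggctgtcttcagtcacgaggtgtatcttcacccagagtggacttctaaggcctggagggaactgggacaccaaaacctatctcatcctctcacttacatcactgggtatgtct

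Targets of the oxidative stress factor Nrf2 were higher in B for 7 of 14 and higher in A for 0 (median −0.35). The quinone reductase Nqo1 ran from 0.93 to 2.77 (median 1.85) in A and from 2.03 to 4.26 (median 2.55) in B (−0.98 ± 0.17 SE, adjusted p 0.000374), and the haem oxygenase Hmox1 from 2.11 to 4.47 (median 3.53) and from 3.56 to 5.52 (median 4.36) (−0.84 ± 0.15 SE, adjusted p 0.000464). The ranges of both overlapped, with the lowest arrays in A and the highest in B. The cystine carrier Slc7a11 (−0.92, adjusted p 0.00513), Me1 (−0.40, adjusted p 0.00138), Gclc (−0.38, adjusted p 0.0198), Osgin1 (−0.84, adjusted p 0.0319) and Ftl1 (−0.61, adjusted p 0.043) shared the direction, and Srxn1 (−0.01, adjusted p 0.989), Gsr (+0.07, adjusted p 0.788) and Txnrd1 (+0.23, adjusted p 0.341) did not pass. Genes of hypoxia and glycolysis passed at 28.6%, near the 25.1% of all genes, with a median of +0.11 against +0.08 over all genes. Of these 28 genes 8 were higher in A and 0 in B. Among them were the vasoactive peptide Adm (+1.10, adjusted p 0.00015), Ndrg1 (+1.04, adjusted p 2.20e-05), the collagen hydroxylase P4ha2 (+0.79, adjusted p 0.00013) and the glycolytic enzyme Tpi1 (+0.63, adjusted p 0.000763), whereas Vegfa (+0.10, adjusted p 0.612), Ldha (−0.24, adjusted p 0.433) and Slc2a1 (−0.23, adjusted p 0.125) did not pass.

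Ribosomal and respiratory chain genes were lower in A by amounts that depended on the scaling. Of 74 cytosolic ribosomal protein genes 54 were higher in B and 0 in A (median −0.58), 52 with the 75th percentile, but 11 under quantile normalization (median −0.12), 16 under normexp (−0.08) and 14 in the matched-group block. Of 68 genes of the respiratory chain 26 were higher in B and 2 in A (median −0.33), and 15 and 2 under quantile normalization (median −0.11). Rps25 ran from 6.44 to 9.68 (median 9.16) in A and from 9.54 to 10.89 (median 9.93) in B (−1.24 ± 0.26 SE, adjusted p 0.00159). Its lowest level in A was that of the array with the dim area, and without that array the difference was −0.89. Over the lists, 68 ribosomal genes and 39 of the respiratory chain were higher in B without it. Ndufb3 (−0.92, adjusted p 0.000491), Ndufa6 (−0.98, adjusted p 0.00232, −0.66 without that array) and Atp5mf (−0.80, adjusted p 0.000491) were higher in B, and Atp5f1b (+0.52, adjusted p 0.00174) was higher in A. These genes are among the brightest on the array, and many ribosomal protein genes have near-identical processed copies, so their values may be shared between loci. Within series D, the sham array of 2 h on the slides of A minus the 2 stimulated arrays of 2 h on the slides of B had a median of −0.56 over the ribosomal genes and −0.31 over the respiratory chain.

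Among genes above background on every array of the higher series and not overlapping between the series, those named beside Fcrl2 were moderate in size. Slc39a12 and Tyrobp are given above. Rcan2, an inhibitor of calcineurin, ran from 0.89 to 2.08 (median 1.38) in A and from −0.59 to 0.23 (median −0.12) in B (+1.5 ± 0.16 SE, adjusted p 9.44e-07). Ramp3, which sets the ligand of adrenomedullin and calcitonin receptors, differed by +1.35 ± 0.18 (SE; adjusted p 1.54e-05), the zinc finger gene Zfp329 by +1.15 ± 0.13 (SE; adjusted p 2.00e-06) and the stress kinase Map3k5 by +0.98 ± 0.14 (SE; adjusted p 4.94e-05). The orphan receptor Gpr26 (+0.85, adjusted p 7.23e-06), the secreted synaptic protein Lgi1 (+0.83, adjusted p 3.95e-05) and the adhesion protein Cntnap4 (+0.80, adjusted p 0.000108) are neuronal. Armcx3, Necab3, the deacetylase Hdac10, Stxbp2 and the postsynaptic scaffold gene Frmpd4 complete the 15, with differences from +0.73 to +1.02.

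The 15 genes chosen in the same way from those higher in B included several known from tissues other than brain. The olfactory receptor Or10al5b ran from −4.75 to −1.64 (median −2.49) in A and from 0.36 to 2.06 (median 0.98) in B (−3.94 ± 0.38 SE, adjusted p 4.27e-07), and the steroid-metabolizing enzyme Akr1c2 from −4.95 to −2.49 (median −4.46) and from −0.93 to 1.28 (median −0.14) (−3.84 ± 0.36 SE, adjusted p 2.65e-07). The cytokine Il5, known from T cells, ran from −4.42 to −2.07 (median −3.53) and from −1.24 to 0.62 (median −0.48) (−3.02 ± 0.31 SE, adjusted p 8.53e-07). Every array of B lay above every array of A for each of them, as the choice of the genes required. The medians of Akr1c2 and Il5 in A lay within the range of Aif1 in B (from −4.68 to −2.54), which stood above background on 0 arrays. A bound was set only for genes dim on every array of a series. Differences given with an SE here may thus rest largely on dim levels in A, and their size is uncertain. Pramef8l1 differed by −3.77 ± 0.28 (SE; adjusted p 1.92e-08) and the transcription factor Tfap2b, of the neural crest, by −3.13 ± 0.39 (SE; adjusted p 9.53e-06). Or10al7, the interferon Ifnk, Pebp4, the inflammasome protein Mefv and the uncharacterized LOC102547807 and LOC102551594 differed by −1.96 to −2.90. Dnajc5g and 4930488N24Rikl stood well above background on all 12 arrays of B and on 0 of A, at least 2.73-fold and 2.75-fold higher in B. Of these 15 genes, 12 had 1 of their 3 lowest levels of series D on iTBS at 8 h replicate 3, 11 on iTBS at 24 h replicate 3 and 10 on sham at 24 h replicate 3. These D arrays lay on the slides of series C. The same ranks over all probes were not taken. Akr1c2 ran from −1.66 to 0.26 on the 4 D arrays that lay on the slides of A, all above every array of A. Whether these probes read their named transcripts was not tested.

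Probes without a gene symbol also held large differences. A_44_P1154947 (adjusted p 1.01e-11) was at least 5.75-fold higher in A, with levels from −0.68 to 0.64 (median −0.30) in A and from −5.15 to −3.13 (median −4.72) in B. A_44_P1149047 differed by +4.18 ± 0.31 (SE; adjusted p 1.65e-08) in the same direction. A_64_P024700 (adjusted p 2.14e-08, at least 7.25-fold) and A_44_P1364280 (−4.24 ± 0.36 SE, adjusted p 1.15e-07) were higher in B. A_44_P1149047 was as low as −4.84 in B and A_44_P1364280 as low as −5.27 in A, so the size of both differences is uncertain.

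The levels in series C and D show where A and B stand. For C1qa the order by median was A, D, B and C: D ran from −2.76 to 1.10 (median −1.16) with 14 of 15 arrays above background, and C from −4.73 to −2.99 (median −4.52) with 0 of 17. The ranges of B and C overlapped. Trem2 ran from −2.72 to 0.28 (median −1.66) in D and from −3.88 to −2.84 (median −3.33) in C, and C3 from −1.23 to 0.56 (median −0.16) and from −2.34 to −1.43 (median −1.83). For Cldn11 the order was C, B, A and D, where C ran from 5.34 to 7.27 (median 6.39), above every array of B, and D from −0.92 to 0.88 (median −0.41), overlapping the lower arrays of A. Pdgfra was far lower in D (from 3.87 to 6.28, median 4.78) than in A or B, and C (from 7.69 to 8.37, median 8.21) lay within the range of A and B. Otx2 was lowest in A, and B, C (from −0.57 to 0.56, median 0.01) and D (from 0.14 to 1.32, median 0.79) overlapped. When all 55 arrays were fitted together, with terms for series and for protocol and time, 10775 of 32480 probes passed for A against B, 6058 higher in A and 4717 higher in B.

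**Figure D4:**
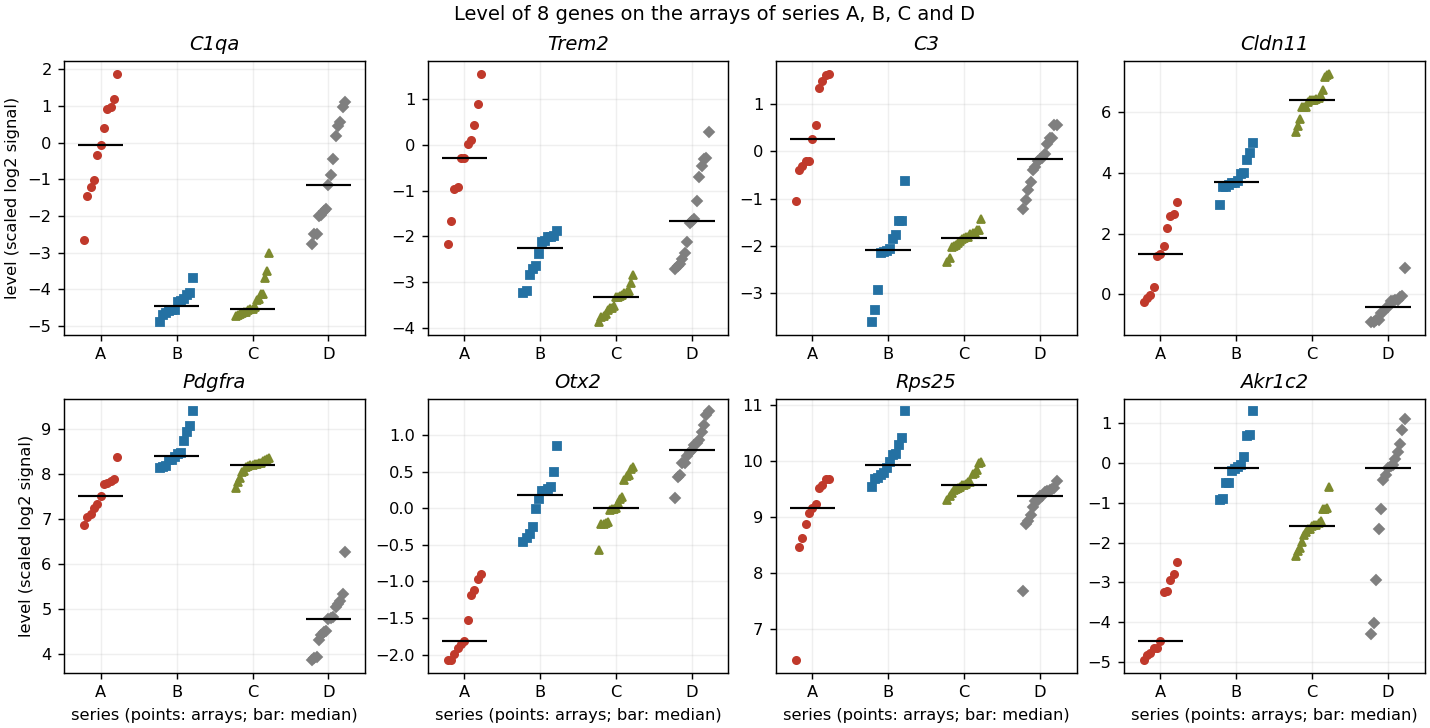
Level (log2 signal scaled within the array) of 8 genes in series A, B, C and D, with 1 point per array in order of level and a bar at the median. By median, C1qa, Trem2 and C3 are higher in A and D than in B and C, Cldn11 runs in the order C, B, A, D, and Otx2 and Akr1c2 are lowest in A.

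In series D, 4 arrays lay on the slides of A and 4 on those of B. Among the 211 probes named under the rule, the levels of these 2 sets of 4 overlapped for 207. The same count over all probes was not made, so it does not measure a difference between the slides. C1qa ran from −2.50 to 0.96 on the D arrays of the slides of A and from −2.50 to −0.88 on those of the slides of B, all above the highest array of B. Cldn11 ran from −0.63 to −0.09 and from −0.22 to 0.88, and Otx2 from 0.45 to 1.13 and from 0.14 to 0.93. The sets differ in time (0 and 2 h against 2 and 8 h), and with time in the model the contrast rests on 1 sham array against 2 stimulated arrays at 2 h. With so few arrays, a low count of calls does not show that the slides are alike. Over the 31801 probes tested in both, A minus B and this contrast correlated at 0.26 (Pearson). Nfatc2, the 1 probe called in both, had opposite signs (+3.06 in D, −0.89 in A minus B). That contrast called 7 of 33818 probes (0.0207%), with 849 at an unadjusted p under 0.05, and of 8297 probes called between A and B and tested there, 1 was called.

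The last comparison asked whether the difference between A and B depended on time. With an interaction of series and time, 1926 of 32480 probes passed (5.93%), but 976 of them (50.7%) and 96 of the 100 with the smallest p had a spot in the dim area of the array of A at 8 h. The 5 named genes with the smallest p, Limk2, Dnd1, Slc2a8, Ncan and Hipk3, all had a spot there, and A minus B ran from −5.26 to −3.58 at 8 h for these and was within 0.76 log2 of B at all other times. Without the 4 arrays of 8 h, 73 probes passed (0.225%, with 5626 at an unadjusted p under 0.05), and without the array of A after 1 Hz at 48 h 3895 did. Among the 73 with a gene symbol Txnip had the smallest adjusted p (0.00195). Txnip, an arrestin that restrains glucose uptake, lay from 1.76 to 2.37 in A and from −0.68 to 0.34 in B at 0 h, and from −1.14 to −1.01 and from 0.29 to 0.46 at 2 h, so A was higher at 0 h and lower at 2 h. At 48 h both series were high, from 3.41 to 3.57 and from 3.76 to 4.02. Plau, the urokinase, lay from −2.05 to −0.35 in A and from −5.21 to −5.02 in B at 0 h (adjusted p 0.00535 without 8 h). Tub, the next by p, rests on 1 array, that of A after 1 Hz at 24 h, where it was at 6.10 while the other 22 arrays lay from −2.54 to −0.21.

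Activity-regulated transcription factors, which neurons switch on within minutes of firing, gave few calls. Over all times 3 of 19 passed (15.8%, against 25.1% of all genes), all higher in A: Fosb (+1.2, adjusted p 0.0343), Npas4 (+1.01, adjusted p 0.0437) and Crem (+0.35, adjusted p 0.0289), and the count was 0 under scaling to the 75th percentile and with all 55 arrays. Each lost its call when any of several single arrays was left out; without the sham array of A at 2 h Fosb was at 0.98 and Npas4 at 0.87. At 2 h Npas4 lay from 1.77 to 2.15 in A and from −0.99 to −0.77 in B, and Fos from 3.51 to 4.11 and from 2.28 to 2.64, with 2 arrays in each series and no overlap. At 0 h Npas4 lay from −1.61 to −0.36 in A and from −1.13 to −0.17 in B, and Fos from 1.37 to 2.31 and from 2.21 to 3.21. Whether the difference depended on time did not pass for Npas4 (adjusted p 0.113 without 8 h) or Fos (0.201). Of the 23 activity-regulated effectors 7 were higher in A and 0 in B (30.4% called, near the 25.1% of all genes). Among them were Scg2, Nrn1 (+0.80, adjusted p 0.00335) and Gadd45g (+0.27, adjusted p 0.0219), while Arc (−0.08, adjusted p 0.789), Egr1 (−0.08, adjusted p 0.894) and Bdnf (+0.46, adjusted p 0.055) did not pass.

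**Figure D5:**
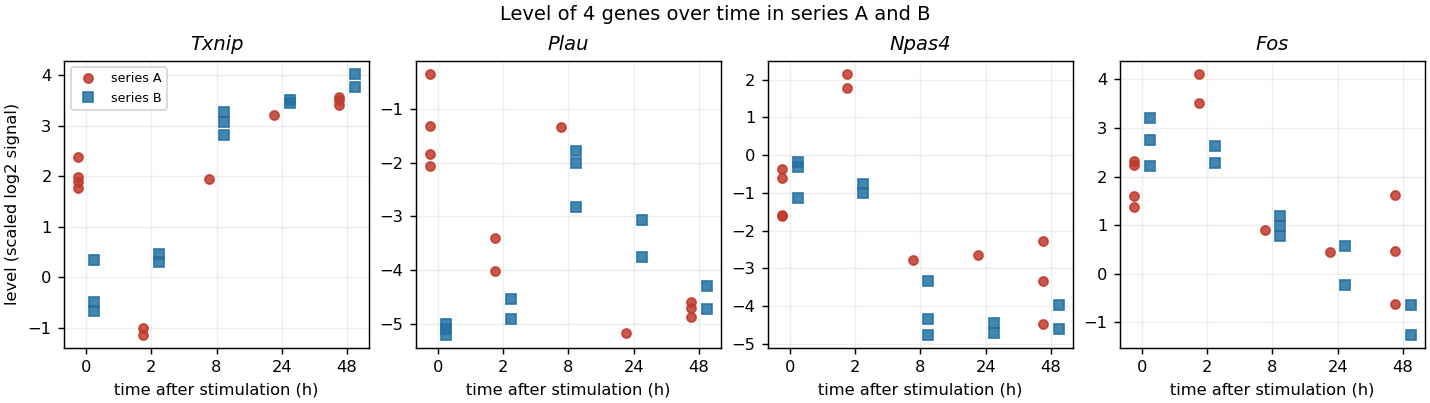
Level (log2 signal scaled within the array) of Txnip, Plau, Npas4 and Fos on each array of series A (circles) and B (squares) against the time after stimulation in hours. Txnip is higher in A at 0 h and lower in A at 2 h, Plau is higher in A at 0 h, and Npas4 and Fos are higher in A at 2 h.

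The remaining lists are given by their counts, to be read against the 25.1% of all genes that passed. Cold-inducible RNA-binding proteins gave 0 of 2 (Cirbp −0.14, adjusted p 0.34; Rbm3 −0.16, adjusted p 0.433) and targets of p53 0 of 11, with 0 and 7 at an unadjusted p under 0.05 in limma. Heat shock genes gave 2 higher in A and 1 in B of 16 (Hspa1a +0.54, adjusted p 0.00184; Hspe1 −0.53, adjusted p 0.00514), genes of ER stress 2 and 2 of 25 (Ddit3 −0.79, adjusted p 0.0162, −0.44 without the array with the dim area) and targets of glucocorticoids and FoxO 1 and 1 of 12. Cholesterol synthesis gave 4 higher in A and 1 higher in B, of 24. Axon guidance gave 7 and 3 of 33, with the receptor Nrp1 (+0.83, adjusted p 0.000614) and the repellent Slit2 (+0.54, adjusted p 0.00319) higher in A and the semaphorins Sema4d (−0.84, adjusted p 0.0203) and Sema3c (−0.94, adjusted p 0.0384) higher in B.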

How the data were processed

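Total RNA of each culture was labelled with Cy3 and hybridised to 1 array of a rat Agilent design. The deposited scanner files hold intensities that the authors extracted with Feature Extraction 12.0.3.1 (build rn4 per the file headers, no coordinates of which are used). The deposited value table holds scores, which are z-scores of each array's log signal (largest difference from such a z-score 0.00500), and served as an alternative.

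From 62976 spots per array, 58717 non-control spots gave 45598 probes, of which 420 whose spots were all outlier-marked on some array were dropped. The log2 of the processed signal was centred on the mean of all probes and divided by the SD of each array, then multiplied by the median SD over the arrays (4.06) so that differences stay in log2 units. Probes well above background on at least 3 of the 23 arrays were kept, 32480 tested and 12698 left out. Series and time entered a linear model in limma 3.58.1 (R 4.3.3), which left 17 residual degrees of freedom beside a prior of 3.10, with Benjamini-Hochberg adjustment over all probes. A probe dim on every array of a series was given a bound of its fold. The steps were tested on simulated data. Symbols came from RefSeq (GRCr8) for 21109 probes of 16581 genes, and each gene was read by its brightest probe.

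Named genes are the 15 of the largest difference each way without overlap of the series, up to 4 of the smallest p in each list, a set of common marker and activity genes, the 5 of the smallest p for a difference by time and 2 probes without a symbol each way. Hbb and Xist had no probe that was tested. The series, the lists and the rule were chosen with earlier results of these data known, and list members named beyond the rule were named after their values were seen. Alternatives were the scaling (75th percentile, quantile, normexp on the median signal and background with quantile, the deposited scores), the filter, the model terms and blocks, and the arrays and times left out. The list medians with all 55 arrays, without the array of A at 8 h or the array of A after 1 Hz at 48 h, and the genes of the smallest p without 8 h were chosen after seeing the data. Some genes that the rule or the lists hold are not reported here.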

Additional observations from a re-analysis of the deposited data

Results flagged for a closer look

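The difference between A and B was tested for a dependence on time with an interaction of series and time in limma. It passed for 1926 probes, and for 73 when the arrays of 8 h were left out. Among named genes with all times the smallest adjusted p was that of Limk2 (2.54e-07), followed by Dnd1 (2.54e-07), Slc2a8 (5.85e-07), Ncan (6.71e-07) and Hipk3 (6.71e-07), all with a spot in the dim area of the only array of A at 8 h. Without 8 h the genes of the smallest adjusted p were Txnip (0.00195), Tub (0.00245), Plau (0.00535), the olfactory receptor gene Or5ac22 (0.00607) and Pianp (0.0143). Series A and B hold more than 10 arrays each and their groups of 1 protocol and time 1 or 2, so no search for single deviating arrays within a group was made.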

How the results depend on the processing

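Of the values of single genes recomputed under each alternative, 8472 kept their direction and their side of the threshold, 657 no longer passed, 122 passed where they had not, and 21 reversed. The count of 8372 probes moved most with the array of a badly placed grid (1240, 351 higher in A and 889 in B) and with the study's criteria (854, 266 and 588). It was 3369 (1633 and 1736) with slide as a random block, 5568 (2926 higher in A) with protocol beside time, 3498 (1772 and 1726) without 0 h and 5858 (3140 higher in A) without 48 h, and 2786 were higher in A with the 75th percentile. Leaving out each array gave 6382 to 9138. The share higher in A was 62.6% with the deposited scores, 48.5% with the slide block, 28.3% with the badly placed grid and 31.1% with the study's criteria. The count for a difference by time was 3615 with normexp, 769 without 0 h, 73 without 8 h and 3807 without 48 h, and 73 to 3895 when each array was left out, with 1282 without the array of B after iTBS at 2 h.

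With the badly placed grid Nefm was at −0.022, Stmn2 −0.37, Neurod6 −0.10, Bcl11b −0.22, Crem −0.13, Gadd45g −0.21, Gabrb2 −0.16, Cacna1c −0.022, Bsn −0.41, Ahsa1 −0.45, Aldh18a1 −0.15, Fdps −0.47, Lss −0.34, Mvd −0.38, Atp5f1b −0.17 and Slit3 −0.22, all above 0 without it. Txnip was at −0.81 without 0 h, and Dnd1 and Slc2a8 at 0.42 and 0.29 without 8 h (−0.54 to 0.42 and −0.36 to 0.29 when each array was left out). The cause was not tested in either case.

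In the matched protocol-and-time groups, the correlation of deviations between A and B was negative in 6 of 7 groups (−0.58 to 0.12). Each group holds 1 array of each series, and deviations taken within a time are partly opposed by construction. These values therefore do not show whether the groups pair the arrays. With the matched group as a replicate block 4261 probes passed, 2260 higher in A and 2001 in B, and with the replicate number of the titles as a block 8035 did. Arrays of the same title number correlated at 0.05 on average between series, and others at −0.04. The number of arrays limits the precision, and 12698 probes too dim to test are not covered.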

Other observations

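Genes outside the comparisons above that passed in limma went in both directions within their lists. Of 14 collagen genes, Col23a1 (+0.82), Col15a1 (+0.69) and Col6a2 (+0.67) were higher in A and Col8a1 (−0.74) and Col16a1 (−0.53) were higher in B. Among 16 clock genes, Nfil3 (+0.82), Npas2 (+0.47) and Per1 (+0.41) were higher in A and Dbp (−0.44) and Nr1d2 (−0.41) were higher in B. Of the sex chromosome genes tested, Eif2s3 on the X chromosome was higher in A (+0.53) and its Y-linked copy Eif2s3y higher in B (−0.54), though Eif2s3y no longer passed in 31 of 44 alternatives (adjusted p up to 0.257), while the Y-linked Ddx3y (+0.16, adjusted p 0.485) did not pass. The arrestin Arrdc4 was higher in A (+0.81), and no longer passed in 20 of 44 alternatives (adjusted p up to 0.599). Of the clock genes, Npas2 no longer passed in 10 of 44 and Nr1d2 in 9.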
